A study of Mus musculus with 6 samples.

Results

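10 genes of blood and lymphatic vessel growth were followed in the neonatal mouse cornea: the growth factors Vegfa, Vegfc, Angpt1 and Apln, the receptors Flt1, Flt4 and Aplnr, and the lymphatic markers Lyve1, Pdpn and Prox1. They were chosen by name, with earlier results of these data known, from 19938 gene symbols on the array. Each of the 10 genes was matched by exactly 1 probe set whose annotation names that symbol alone, so that no choice between probe sets had to be made. The samples were 3 arrays of wild-type (WT) whole corneas and 3 of whole corneas from littermates of the K14-DN-Clim line (DN-Clim below), all at postnatal day 3. In that line the keratin 14 promoter, which is active in basal epithelial cells and not in vessels, drives a dominant-negative protein that blocks CLIM, a cofactor of LIM-domain transcription factors. No strain is given in the labels, nor whether an array holds RNA of 1 pup or of a pool, so the p-values speak only of the spread among these samples, part of which may be technical.

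The healthy cornea carries no blood or lymphatic vessels, and vessels end at the limbus, the ring where cornea and conjunctiva meet. VEGF ligands bind receptor tyrosine kinases on endothelial cells. Vegfa acts mainly on Kdr and is held back by Flt1, which binds it tightly and of which a secreted form in the cornea traps Vegfa, while Vegfc acts on Flt4 of lymphatic endothelium. Angpt1 steadies vessels through the receptor Tek, and the peptide apelin (Apln) guides growing vessels through the G protein-coupled receptor Aplnr. Prox1 is the transcription factor that gives lymphatic endothelium its identity, and Lyve1, a hyaluronan receptor, and Pdpn, a membrane mucin, mark that endothelium. None of the lymphatic markers is restricted to it: Prox1 is also made by lens fibre cells, Lyve1 by tissue macrophages, and Pdpn by epithelial and stromal cells.

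Levels are given as log2(intensity + 16), and each difference is that of DN-Clim from WT, negative where DN-Clim was lower. The arrays labelled DN-Clim differed among themselves. The mean of 19 lens genes lay between 8.28 and 8.83 in WT and at 7.95 on DN-Clim replicate 3, but at 11.2 and 11.4 on DN-Clim replicates 1 and 2, and 18 of the 19 genes had a difference above 0. The lens crystallin Cryaa read 8.85 to 9.59 in WT, and 14.25, 13.96 and 8.86 on DN-Clim replicates 1, 2 and 3. Across all probe sets, correlations between WT arrays were 0.959 to 0.974. Those of DN-Clim with WT ran from 0.938 to 0.956 for replicate 1, from 0.923 to 0.957 for replicate 2 and from 0.936 to 0.95 for replicate 3, so that no DN-Clim array stood nearer to WT than the others throughout. Replicate 3 correlated with replicates 1 and 2 at 0.921 and 0.898, and these with each other at 0.951. The genotype of each array was taken from its label and not checked against the values, which bears on every DN-Clim mean and on each value with or without replicate 3. The corneal label was borne out on every array: Krt12, the keratin of corneal epithelium, read 11.04 to 11.95 and Kera, the keratocyte proteoglycan keratocan, 11.96 to 13.09, against array medians of 7.95 to 8.21. For these reasons the values below are given array by array, and results that rest on 1 array are given with and without it.

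With all 6 arrays none of the 10 genes passed the adjusted threshold of 0.05 in limma, a linear model with a shared estimate of the spread. Over all 23410 probe sets paired with a gene, 0.0128% passed. At an unadjusted p under 0.05, 1 of the 10 genes was lower in DN-Clim (Aplnr), where 4.49% of all probe sets were, and 0 were higher, where 1.45% of all were. The groups did not overlap for 1 gene, again Aplnr, whose DN-Clim arrays all lay below the WT arrays, as was so for 6.95% of all probe sets, while for 3.2% of all DN-Clim lay wholly above WT and for 0 of the 10 genes. The differences were below 0 for 8 of the 10 genes, against 57.2% of all probe sets, and their median was -0.33, against -0.04 over all. Without DN-Clim replicate 2 those medians were -0.11 and 0.01, and without DN-Clim replicate 3 they were -0.43 and -0.12. The WT arrays lay close together and the DN-Clim arrays far apart. The SD was larger in DN-Clim than in WT for 9 of the 10 genes, with medians of 0.554 and 0.194, and for 81.5% of all probe sets, with medians of 0.322 and 0.156.

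**Figure D1:**
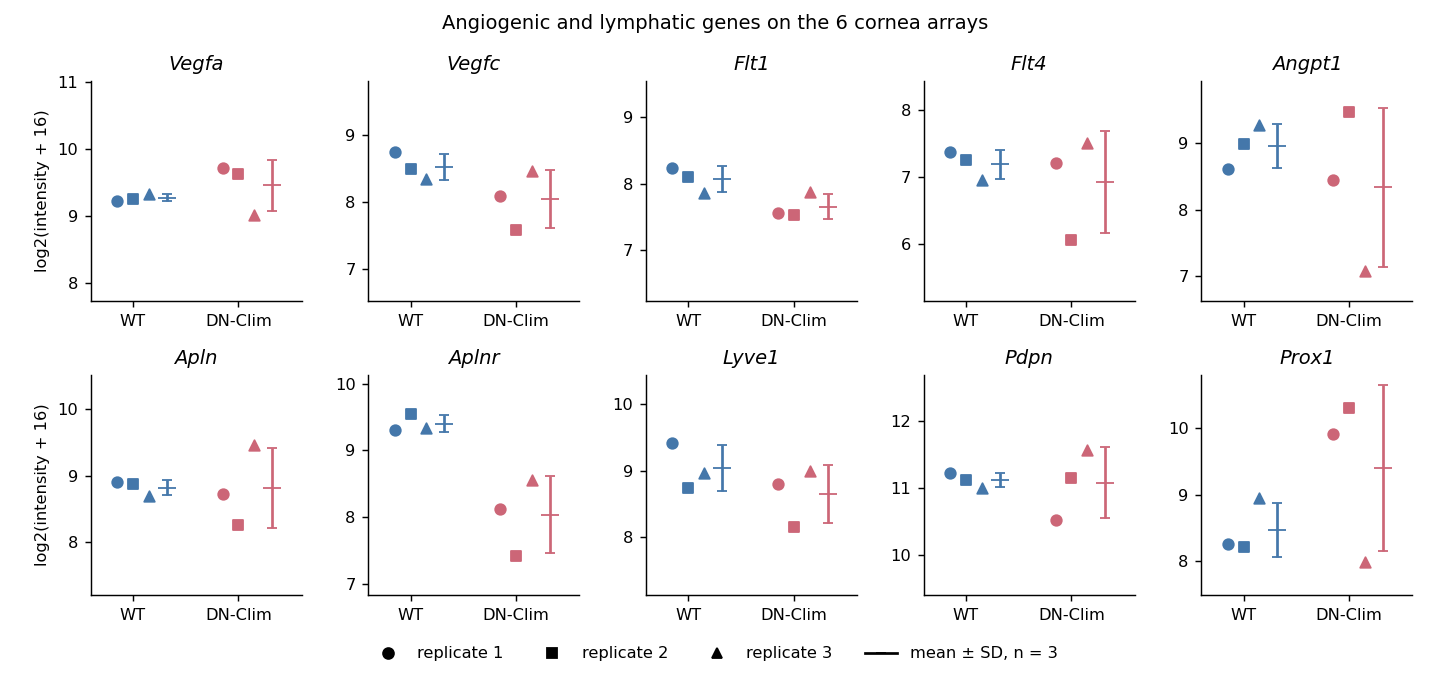
Log2(intensity + 16) of the 10 genes on each array, with WT in blue, DN-Clim in red, marker shapes for replicate numbers, and mean ± SD (n = 3) beside the points; every panel spans the same log2 range. Aplnr is the gene whose 3 DN-Clim arrays (7.42 to 8.56) all lie below the 3 WT arrays (9.31 to 9.54), while Prox1 is high on DN-Clim replicates 1 and 2 (9.90 and 10.30) and at 7.98 on replicate 3.

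Of the 10 genes, the apelin receptor had the largest difference between the groups. Aplnr read 9.31, 9.54 and 9.34 on WT replicates 1, 2 and 3, and 8.12, 7.42 and 8.56 on DN-Clim replicates 1, 2 and 3. Every DN-Clim array was below every WT array, and DN-Clim replicate 3, whose lens gene mean was below that of every WT array, was the highest of the 3. The means were 9.40 ± 0.13 (SD, n = 3) in WT and 8.03 ± 0.58 (SD, n = 3) in DN-Clim, a difference of -1.36 (SE 0.278, 95% confidence interval -1.99 to -0.74), that is, 38.8% of the WT level. Its unadjusted p of 0.00078 ranked 41 among the 23410 probe sets, and the limma adjusted p was 0.44. Without DN-Clim replicate 3 the difference was -1.63 (SE 0.225) and passed (limma adjusted p = 0.0151), a p to be read knowing that this array was set aside for how it looked. DN-Clim replicate 3 alone lay at -0.84 from the WT mean (SE 0.192), a single array and so given as a value. With the mean of the lens genes added to the fit of all 6 arrays the Aplnr difference was -0.96 (SE 0.24, limma adjusted p = 0.251). That mean was high on DN-Clim replicates 1 and 2 alone, so that this difference leans on replicate 3.

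The ligands of this receptor lay below their WT means on DN-Clim replicates 1 and 2 and parted in sign on replicate 3. Apln read 8.90, 8.87 and 8.70 in WT, against 8.72, 8.26 and 9.46 in DN-Clim, so that replicate 2 was below all WT arrays, replicate 3 above them and replicate 1 among them. The group means, 8.82 ± 0.11 (SD, n = 3) and 8.81 ± 0.60 (SD, n = 3), differed by -0.01 (SE 0.285), with a 95% confidence interval of -0.65 to 0.64, and the sign turned under 9 of 17 alternative settings. Apela, the other peptide ligand of the receptor, read 8.03, 9.41 and 8.99 in WT, against 7.76, 6.25 and 8.28 in DN-Clim. Its groups overlapped, since DN-Clim replicate 3 was above WT replicate 1, and the difference of -1.38 (SE 0.509) did not pass (limma adjusted p = 0.788).

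Aplnr is a gene of endothelium, and most but not all blood endothelial markers had differences below 0. In these bulk samples fewer cells of a type and less RNA per cell cannot be told apart. Of 19 blood endothelial genes 16 had a difference below 0, where 57.2% of all probe sets did. Of the 19, 1 fell, where 0.0128% of all did, the sialomucin Emcn (-2.44, SE 0.198, limma adjusted p = 0.0113). On DN-Clim replicates 1, 2 and 3, 17, 18 and 12 of the 19 lay below their WT mean. The groups did not overlap, with DN-Clim lower, for 9 of them, as was so for 6.95% of all probe sets. The median difference was -0.44, against -0.04 over all. With dim probe sets left out (mean no higher than the median of the table), it was -0.86, against -0.01 over those tested. The list means given here include the dim genes. The endothelial lectin Clec14a differed by -1.93 and the endothelial cadherin Cdh5 by -1.48, and neither passed (limma adjusted p = 0.0627 and 0.273). Differences above 0 were those of Kdr (0.39), Plvap (0.29) and Robo4 (0.03), endothelial membrane proteins. The 8 conjunctival markers, of a tissue that carries vessels, all had differences below 0, with means relative to WT of -0.48, -0.84 and -0.05 on DN-Clim replicates 1, 2 and 3 and of 0.48, -0.28 and -0.20 on the WT arrays. Relative to the WT mean, the endothelial list averaged -0.70, -0.88 and -0.40 on the DN-Clim arrays and between -0.08 and 0.16 on those of WT. Set against this mean Aplnr lay at -0.57, -1.10 and -0.44 on the DN-Clim arrays, where WT ranged from -0.25 to 0.23. Single genes of the list varied widely, and 4 of the 19, Emcn, Clec14a, Cd34 and Cdh5, had lower differences than Aplnr. The part of endothelial or conjunctival content in the Aplnr difference was not tested.

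**Figure D2:**
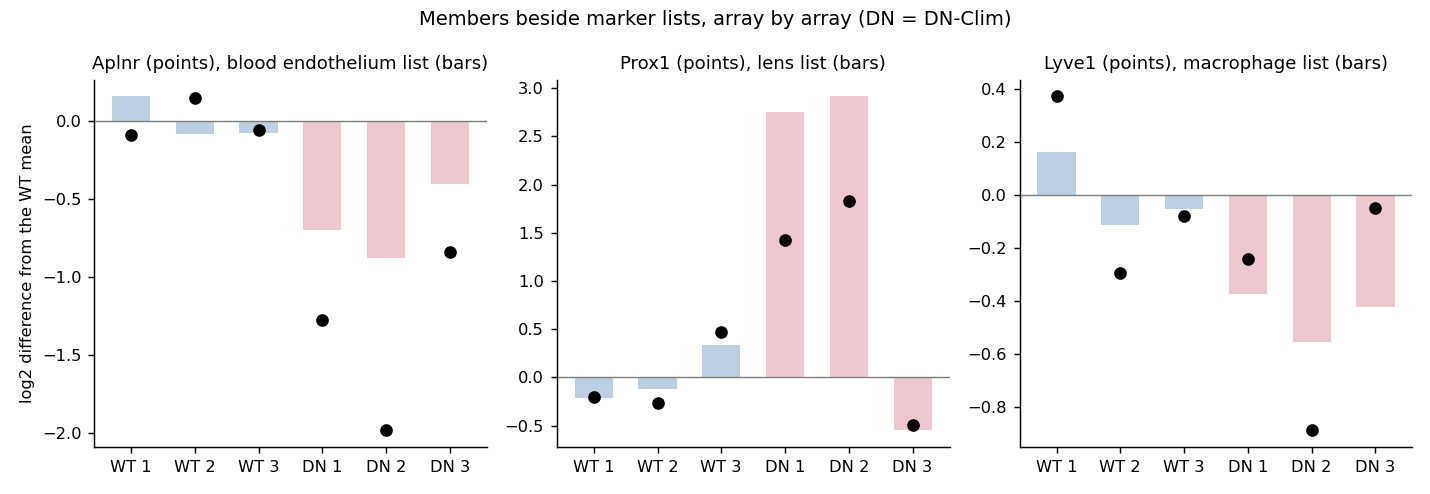
Difference from the WT mean on the log2 scale on each array, for 3 of the genes (points) and the mean of a marker list (bars): Aplnr with 19 blood endothelial genes, Prox1 with 19 lens genes, and Lyve1 with 15 macrophage genes. The Aplnr point lies below the endothelial bar on all 3 DN-Clim arrays, and Prox1 and the lens bar are both high on DN-Clim replicates 1 and 2 (Prox1 at 1.43 and 1.83) and below the WT mean on replicate 3 (Prox1 at -0.49).

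Among the VEGF receptors, Flt1, which traps Vegfa, was lower on DN-Clim replicates 1 and 2 and level with the lowest WT array on replicate 3. It read 8.24, 8.10 and 7.86 in WT, against 7.55, 7.53 and 7.87 in DN-Clim. The difference was -0.42 (SE 0.193, 95% confidence interval -0.85 to 0.02, unadjusted p = 0.0591, limma adjusted p = 0.862). After quantile normalization or median centring the groups no longer overlapped. The probe set gives 1 value per gene, so the membrane and the secreted form of Flt1 cannot be told apart. Set against the mean of the blood endothelial list, Flt1 was not lower: relative to that mean it lay at 0.19, 0.34 and 0.20 on DN-Clim replicates 1, 2 and 3, and between -0.12 and 0.11 in WT. The list mean includes dim genes, and Flt1 was itself too dim to pass the filter on dim probe sets. Under that filter the median difference of the list was -0.86, so the place of Flt1 relative to the list depends on the genes kept. Flt4, the receptor of Vegfc on lymphatic endothelium, was dim, with array values of 7.37, 7.25 and 6.95 in WT, against 7.21, 6.06 and 7.52 in DN-Clim. Only DN-Clim replicate 2 was below the WT arrays and replicate 3 was above them, and the difference of -0.26 (SE 0.345, 95% confidence interval -1.04 to 0.51) turned to 0.17 without DN-Clim replicate 2.

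The ligands Vegfa and Vegfc stood apart from WT in opposite directions on the arrays with the lens signal. Vegfa was almost constant in WT, at 9.23, 9.26 and 9.34, and read 9.72, 9.63 and 9.02 in DN-Clim. All 3 DN-Clim arrays lay outside the WT range, replicates 1 and 2 above it and replicate 3 below it. The mean difference was 0.18 (SE 0.221, 95% confidence interval -0.31 to 0.68). It was 0.40 without DN-Clim replicate 3 (SE 0.149, limma adjusted p = 0.192) and -0.25 for replicate 3 alone. Vegfc read 8.74, 8.49 and 8.35 in WT, against 8.09, 7.58 and 8.46 in DN-Clim. Here replicates 1 and 2 were below all WT arrays and replicate 3 among them, with a difference of -0.48 (SE 0.247, 95% confidence interval -1.04 to 0.07, limma adjusted p = 0.898).

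Entries for 7 of the 10 genes were found in a RefSeq promoter table (build GRCm38.p6), of which 4 are shown because they pair genes that lay on the same side of WT on DN-Clim replicates 1 and 2, Flt1 and Vegfc below and Vegfa and Prox1 above. Each is the 250 bases before the transcript start, read 5′ to 3′ on the strand of the gene: Flt1 chr5:147726012-147726261 on the minus strand, Vegfc chr8:54077282-54077531 on the plus strand, Vegfa chr17:46032378-46032627 and Prox1 chr1:190170828-190171077 on the minus strand, the last 2 from the farther upstream of 2 entries each. Capitals mark any match, on either strand, to GGAAG (core of ETS factor sites), TGACGTCA (cyclic AMP response element), ACGTG (core of hypoxia response elements) or TAATTA (a palindrome that homeodomain proteins bind).
Flt1: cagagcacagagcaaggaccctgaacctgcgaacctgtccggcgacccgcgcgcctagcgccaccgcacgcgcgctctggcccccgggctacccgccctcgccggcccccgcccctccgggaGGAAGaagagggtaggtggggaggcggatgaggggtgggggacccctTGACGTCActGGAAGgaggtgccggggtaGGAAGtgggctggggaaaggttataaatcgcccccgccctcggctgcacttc
Vegfc: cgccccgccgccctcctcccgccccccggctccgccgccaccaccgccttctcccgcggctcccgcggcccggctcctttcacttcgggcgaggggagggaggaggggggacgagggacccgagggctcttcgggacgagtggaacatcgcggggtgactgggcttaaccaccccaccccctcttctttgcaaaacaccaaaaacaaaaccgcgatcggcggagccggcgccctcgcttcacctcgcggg
Vegfa: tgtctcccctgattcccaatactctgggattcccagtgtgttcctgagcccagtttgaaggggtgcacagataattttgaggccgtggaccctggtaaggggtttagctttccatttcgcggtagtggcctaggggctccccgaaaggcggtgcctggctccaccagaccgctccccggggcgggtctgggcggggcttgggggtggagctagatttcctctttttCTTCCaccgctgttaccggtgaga
Prox1: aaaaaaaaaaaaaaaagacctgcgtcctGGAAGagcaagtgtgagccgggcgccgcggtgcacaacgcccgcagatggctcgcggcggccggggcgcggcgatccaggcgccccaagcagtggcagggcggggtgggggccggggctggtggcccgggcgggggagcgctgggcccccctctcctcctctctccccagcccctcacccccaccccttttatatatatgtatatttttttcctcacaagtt
Flt1 held 3 matches to GGAAG and the 1 match to TGACGTCA, with no overlap between them, Vegfa and Prox1 held 1 GGAAG each, and Vegfc held none of the 4 motifs. Of all 32851 promoter entries, cut to the same length, 64.1% held GGAAG, 1.55% TGACGTCA, 16.6% ACGTG and 4.84% TAATTA on either strand. The GC content was 70.4% for Flt1, 71.6% for Vegfc, 59.2% for Vegfa and 64.8% for Prox1, against a median of 52.4%. These matches describe the letters of the windows and nothing about binding.

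The other members of the VEGF family gave 0 of 7 genes past the threshold in limma and a median difference of -0.35. Of the 7, 3 were lower at an unadjusted p under 0.05, where 4.49% of all probe sets were. The co-receptor Nrp2, which joins Flt4 in lymphatic vessels, read 9.56, 9.93 and 9.57 in WT, against 8.75, 8.53 and 9.26 in DN-Clim. Its groups did not overlap (difference -0.84, SE 0.231, limma adjusted p = 0.622), and without DN-Clim replicate 3 it fell by 1.04 (SE 0.181, adjusted p = 0.0313). Nrp1, the co-receptor of Kdr, was lower on every DN-Clim array too, with a difference of -0.44 (SE 0.19, adjusted p = 0.836). Pdgfc, a growth factor of the same superfamily, differed by -0.77 (adjusted p = 0.819) and fell by 1.17 without DN-Clim replicate 3. Kdr, the main signalling receptor of Vegfa and a member of the endothelial list too, was not lower in the mean. It read 9.07, 9.02 and 9.49 in WT, against 9.47, 10.32 and 8.96 in DN-Clim, a difference of 0.39 (SE 0.324). Replicate 3 was below all WT arrays. Replicate 2, with the highest Kdr value, also had the highest means of the lens genes and of 13 retinal genes. The part of that content in the Kdr values was not tested. The ligands Vegfb, Vegfd and Pgf differed by -0.11 (SE 0.167), -0.35 (SE 0.263) and 0.03 (SE 0.24).

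**Figure D3:**
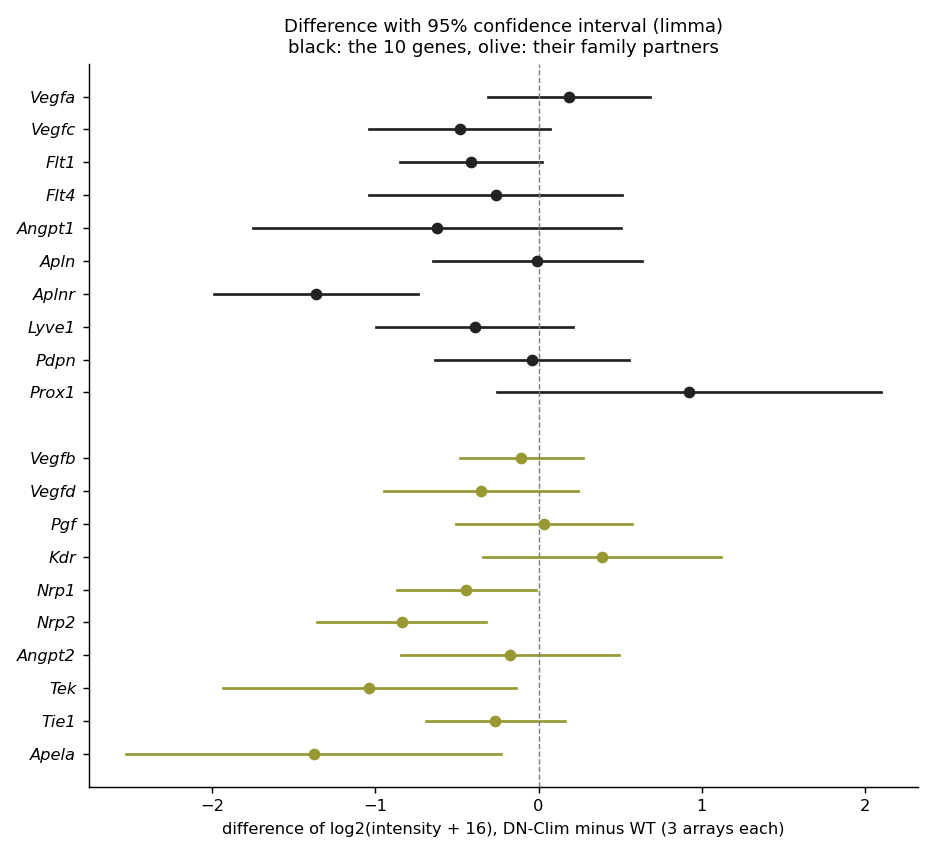
Difference DN-Clim minus WT of log2(intensity + 16) with its 95% confidence interval from limma (3 arrays per group) for the 10 genes (black) and 10 family partners (olive); the dashed line marks 0. Of the 10 genes, only the interval of Aplnr (-1.99 to -0.74) lies wholly below 0, and among the partners those of Nrp1, Nrp2, Tek and Apela do.

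Angpt1 set DN-Clim replicate 3 apart from all other arrays. It read 8.60, 8.99 and 9.27 in WT and 8.44, 9.47 and 7.08 on DN-Clim replicates 1, 2 and 3, the last at -1.87 from the WT mean. The difference over all arrays was -0.62 (SE 0.5, limma adjusted p = 0.999), and it was 0.0019 (SE 0.314) without replicate 3. The value of replicate 3 is that of 1 array and was not taken as a call: the SD of Angpt1 was 1.20 in DN-Clim against 0.33 in WT. With the mean of the lens genes added to the fit, the Angpt1 difference was -1.60 (SE 0.304, unadjusted p = 0.00083, limma adjusted p = 0.17). That mean was high on DN-Clim replicates 1 and 2 alone, so that this difference rests largely on replicate 3 and was not taken as a call either. The mural cell marker Rgs5, a signalling regulator of pericytes, was lowest on the same array, at 7.65 against 9.39 to 9.85 in WT and 9.31 and 9.19 on DN-Clim replicates 1 and 2. The mean of 10 pericyte and mural genes was not lowest there, at -0.56, -0.84 and -0.36 relative to the WT mean on DN-Clim replicates 1, 2 and 3. The Angpt1 receptor Tek read 9.19, 7.48 and 7.84 in WT, against 7.17, 6.81 and 7.42 in DN-Clim. DN-Clim lay wholly below WT, but 7.42 and 7.48 are close together, and the difference of -1.04 (SE 0.399, limma adjusted p = 0.796) includes WT replicate 1, which lay far above the other 2 WT arrays. Angpt2, which opposes Angpt1, differed by -0.18 (SE 0.296), and Tie1 by -0.26 (SE 0.189).

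Of the lymphatic markers, Prox1 had the largest difference and the widest spread. It read 8.27, 8.21 and 8.94 in WT, against 9.90, 10.30 and 7.98 in DN-Clim, so that replicates 1 and 2 were above all WT arrays and replicate 3 below them. The difference was 0.92 (SE 0.522, 95% confidence interval -0.26 to 2.10, limma adjusted p = 0.941), and without DN-Clim replicate 3 it was 1.63 (SE 0.252, limma adjusted p = 0.0218). Replicate 3 is left out there for lacking the lens signal, and lens makes Prox1, so that this p is no independent test of Prox1. The order of the arrays by Prox1 followed the lens list at its upper end: relative to the WT mean, the 19 lens genes had means of 2.75, 2.91 and -0.55 on DN-Clim replicates 1, 2 and 3, and of -0.21, -0.13 and 0.34 on the WT arrays. Prox1 relative to the WT mean lay at 1.43, 1.83 and -0.49 on DN-Clim replicates 1, 2 and 3, and its highest WT value, like that of the lens list, was on WT replicate 3. Lens was not alone in this: 13 retinal genes had means of 0.88, 1.24 and 0.23 on DN-Clim replicates 1, 2 and 3. On the WT arrays these were -0.31, -0.08 and 0.39. All 13 had a difference above 0, and 0 passed in limma. At an unadjusted p under 0.05, 6 were higher, where 1.45% of all probe sets were. The part of lens or retinal content in the Prox1 values was not tested. With the lens list mean added to the fit, the Prox1 difference was -0.18 (SE 0.207, unadjusted p = 0.412). That covariate separates DN-Clim replicates 1 and 2 from the other arrays, so that it cannot be told apart from anything else that sets those arrays apart.

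Lyve1 and Pdpn showed no difference that exceeded the spread of the arrays. Lyve1 read 9.42, 8.75 and 8.96 in WT, against 8.80, 8.15 and 8.99 in DN-Clim, and only DN-Clim replicate 2 was below the WT range. The difference was -0.39 (SE 0.268, 95% confidence interval -0.9969 to 0.21). Macrophages also make Lyve1, and all 15 macrophage genes had differences below 0, with 0 past the threshold in limma and a median of -0.35. At an unadjusted p under 0.05, 5 were lower, where 4.49% of all probe sets were. The mannose receptor Mrc1, a macrophage gene, differed by -1.46 (limma adjusted p = 0.341). The macrophage means relative to WT came to -0.37, -0.55 and -0.42 for DN-Clim replicates 1, 2 and 3. Lyve1 relative to these lay at 0.13, -0.33 and 0.38, where WT ranged from -0.18 to 0.21. Replicate 1 was thus within the WT range, replicate 2 below it and replicate 3 above it. The part of macrophages in the Lyve1 values was not tested. Pdpn had DN-Clim arrays below, within and above the WT range: 11.22, 11.12 and 11.001 in WT against 10.51, 11.14 and 11.57 in DN-Clim, a difference of -0.04 (SE 0.264, 95% confidence interval -0.63 to 0.56) that changed sign under 5 of 17 alternatives.

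Other lymphatic endothelial genes were mostly lower, and none passed. Of 12 such genes 10 had a difference below 0, with a median of -0.27, and 0 passed in limma. At an unadjusted p under 0.05, 3 were lower, where 4.49% of all probe sets were. Foxc2, a transcription factor of lymphatic valves that is also made by other cells, read 9.70, 8.57 and 8.78 in WT, against 8.69, 6.63 and 7.48 in DN-Clim. These groups overlapped, since DN-Clim replicate 1 was above WT replicate 2 (difference -1.42, SE 0.484, limma adjusted p = 0.745). Sox18, which switches on Prox1 in the embryo, read 8.21, 7.85 and 8.10 in WT, against 7.56, 7.46 and 7.39 in DN-Clim. Sox18 did not overlap and was lowest on replicate 3, the array without the lens signal (difference -0.59, SE 0.182, adjusted p = 0.693). Mmrn1, a secreted glycoprotein of lymphatic endothelium and platelets, differed by -0.62 without overlap (adjusted p = 0.788). Nr2f2, the partner of Prox1 in lymphatic fate, differed by -0.11 (SE 0.211). The mean of the 12 genes relative to WT came to -0.15, -0.62 and -0.21 for DN-Clim replicates 1, 2 and 3.

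Inhibitors of vessel growth, which help to keep the cornea clear of vessels, had differences mostly below 0, chiefly on DN-Clim replicates 1 and 2. Of 14 inhibitors 13 had a difference below 0 with a median of -0.49, and 0 passed in limma. At an unadjusted p under 0.05, 6 were lower, where 4.49% of all probe sets were. On DN-Clim replicates 1, 2 and 3 their mean lay at -0.73, -1.09 and -0.12 relative to WT. The 11 keratocyte genes lay at -0.97, -1.29 and -0.16 on the same arrays, and they share Dcn, decorin, with the inhibitors. Of these 11, 10 had a difference below 0 and 0 passed in limma. At an unadjusted p under 0.05, 7 were lower and 1 was higher, where 4.49% and 1.45% of all probe sets were. The higher one was Ptgds, a prostaglandin synthase, at 9.66, 9.67 and 9.85 in WT, against 10.47, 11.01 and 9.87 in DN-Clim (difference 0.73, SE 0.275, limma adjusted p = 0.795). Tnmd, tenomodulin, a membrane protein of tendon with an antiangiogenic domain, read 10.53, 10.18 and 10.89 in WT, against 8.30, 7.01 and 9.21 in DN-Clim. That is a difference of -2.36 (SE 0.47, limma adjusted p = 0.411) without overlap of the groups. Timp3, a protease inhibitor that also blocks Vegfa from its receptor, differed by -0.50 (adjusted p = 0.767) and Sema3a, a repellent ligand of Nrp1, by -1.33 (adjusted p = 0.796). Without DN-Clim replicate 3, 5 of the 14 fell, where 1.52% of all probe sets did: Tnmd (-2.88), Sema3a (-2.05), thrombospondin Thbs2 (-1.88), Serpinf1, the pigment epithelium-derived factor (-1.29), and Dcn (-1.17). Of the 11 keratocyte genes 6 fell in the same setting, Dcn among them, and 1 rose, where 0.547% of all probe sets did. The part of stromal content in these values was not tested.

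Genes of the hypoxia response, of which Vegfa is a classic target, gave 0 of 15 past the threshold in limma and a median difference of 0.28. The list was mixed: 10 genes had a difference above 0 and 5 below 0, where 57.2% of all probe sets lay below 0. The list holds the regulators Hif1a, Epas1 and Arnt beside target genes. At an unadjusted p under 0.05, 1 was higher and 0 were lower, where 1.45% and 4.49% of all probe sets were. Egln1, a prolyl hydroxylase that senses oxygen, read 9.85, 9.95 and 9.98 in WT, against 10.23, 10.44 and 10.34 in DN-Clim, without overlap (difference 0.41, SE 0.171, limma adjusted p = 0.821). Ndrg1, a stress response gene, differed by 0.67 (adjusted p = 0.862) and rose by 1.03 without DN-Clim replicate 3 (adjusted p = 0.0495). Ldha differed by 0.55 (limma adjusted p = 0.873), and P4ha1 was lower, at -0.45 (limma adjusted p = 0.879). The means of the list relative to WT came to 0.12, 0.30 and 0.09 for DN-Clim replicates 1, 2 and 3, and to -0.14, -0.01 and 0.15 on the WT arrays, so that the groups overlapped. Hif1a, which encodes the oxygen-regulated subunit, differed by 0.28 (SE 0.269).

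Which of the 10 genes could be called depended on DN-Clim replicate 3. Without it, 1.52% of all probe sets fell and 0.547% rose past the adjusted threshold, and among the 10 genes Aplnr was past it below WT and Prox1 above, with the limits given above for each. The other 8 had limma adjusted p-values from 0.132 for Vegfc to 0.997 for Angpt1. For Vegfa, Flt4, Apln, Pdpn and Prox1 the sign in replicate 3 alone was opposite to that in all 6 arrays, while for Vegfc, Flt1, Angpt1, Aplnr and Lyve1 it was the same.

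**Figure D4:**
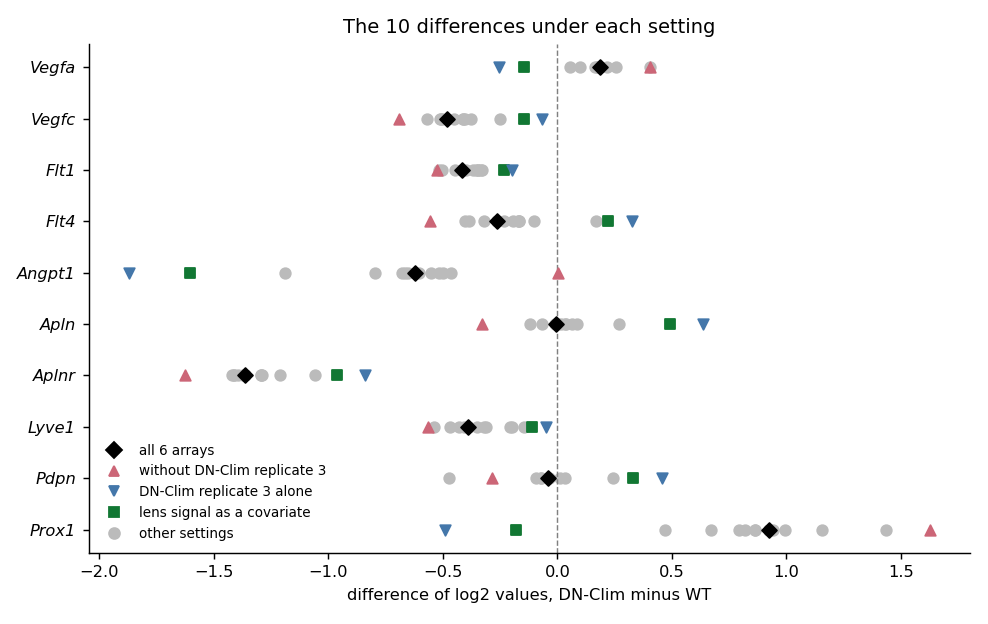
Difference DN-Clim minus WT of each of the 10 genes with all 6 arrays (diamond), without DN-Clim replicate 3 (upward triangle), with DN-Clim replicate 3 alone against WT (downward triangle), with the lens signal as a covariate (square) and under the other settings (grey). Aplnr lies below 0 under all settings (-1.63 to -0.84), as do Flt1, Vegfc and Lyve1, whereas Prox1 runs from -0.49 to 1.63.

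For the 8 genes whose 6 values span more than 1 on the log2 scale, the genes with the most similar profile were sought among 17589 others, as the root mean square distance over the 6 arrays after subtracting the mean of each gene. With 6 arrays and that many genes close neighbours are bound to be found, and they are given as a description. Nearest to Aplnr was Htr2a, a serotonin receptor, at a distance of 0.145, with 8.89, 9.14 and 8.81 in WT, against 7.91, 7.25 and 8.01 in DN-Clim, followed by Il1r2, a decoy receptor for interleukin, at 0.16 and the secreted glycoprotein Stc2 at 0.192. Nearest to Prox1 were the cell cycle inhibitor Cdkn1b at 0.171, Dhx32 at 0.186 and Tox3 at 0.189. Cdkn1b read 8.67, 8.92 and 9.54 in WT, against 10.75, 11.09 and 8.91 in DN-Clim. Nearest to Angpt1 was Dimt1, an RNA methyltransferase of ribosome assembly, at 0.159, which was also lowest on DN-Clim replicate 3 (7.10, against 8.32 to 8.81 in WT). Nearest to Lyve1 was the mast cell protease Cma1 at 0.0632, to Vegfc the cytoskeletal protein utrophin (Utrn) at 0.0373, to Flt4 the defensin Defb41 at 0.0544, to Apln the Nogo receptor Rtn4r at 0.0343, and to Pdpn Pramel17 at 0.048.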

How the data were processed

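Whole-cornea RNA of 3 WT and 3 DN-Clim samples was hybridised to Affymetrix arrays. Per the submitters' processing notes, the deposited intensity values (linear, judging by their range) come from the software Affymetrix Expression Console 1.1 and its method PLIER, which combines the probes of a probe set; which background correction and normalization went before is not given in the sources used here. Per the labels' protocols, a NuGEN kit amplified the cDNA, and quantitative PCR had looked for neighbouring tissues in the RNA. Precision is limited by having 3 arrays a group.

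The deposited intensities were converted to log2(intensity + 16), which understates fold changes of dim genes, with no further normalization. The table held 35557 probe sets, of which 23410 were paired with a gene by the platform annotation (21789 with 1 symbol, 1621 with several) and 12147 were unnamed and not tested. All 23410 were fitted with limma 3.58.1 in R 4.3.3 (lmFit, eBayes) for the DN-Clim effect, and p-values were adjusted over all of them by Benjamini-Hochberg. The fit was tested on simulated data that gave both groups the WT spread of each probe set. They do not show how it fares with the wider DN-Clim spread. The highest-mean probe set stands for a gene.

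The genes and lists were chosen with earlier results of these data known, so list counts are descriptions beside those of all probe sets. Named besides the 10 genes were, per list, up to 4 genes with the smallest p, nearest partners, and the genes with the nearest profiles. Krt12, Kera and Cryaa were named as checks, and Nr2f2, Hif1a, Plvap, Robo4, Cd34 and inhibitors called without DN-Clim replicate 3 were added after their values were seen. Alternatives were offsets, normalizations, filters, priors, array weights, a replicate block, a lens covariate and left-out arrays.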

Additional observations from a re-analysis of the deposited data

How the results depend on the processing

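Of 168 comparisons of the 10 genes under 17 alternatives, 140 kept their direction and their side of the adjusted threshold, 6 came to pass it and 22 turned in sign. Vegfc, Flt1, Aplnr and Lyve1 kept their direction under every alternative that could be run for them; with a filter on dim probe sets Flt1 and Flt4 were not tested. Aplnr ranged from -1.63 to -0.84.

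The cause of each turn in sign was not tested. With the lens signal as a covariate, the differences were -0.14 for Vegfa, 0.22 for Flt4, 0.49 for Apln, 0.33 for Pdpn and -0.18 for Prox1, and Angpt1 kept its sign at -1.60. With DN-Clim replicate 3 alone against WT they were -0.25, 0.32, 0.64, 0.46 and -0.49 for Vegfa, Flt4, Apln, Pdpn and Prox1. The lens covariate was high on DN-Clim replicates 1 and 2 alone, so that its differences too lean on replicate 3. Apln was also above 0 with an offset of 64 (0.00060), quantile normalization (0.084) and median centring (0.063), and Pdpn with median centring (0.032). When each array was left out in turn, Apln ranged from -0.33 to 0.27, Pdpn from -0.29 to 0.24 (0.24 without DN-Clim replicate 1), Flt4 from -0.56 to 0.17 (0.17 without DN-Clim replicate 2) and Angpt1 from -1.19 to 0.0019 (0.0019 without DN-Clim replicate 3).

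The number of probe sets past the adjusted threshold, 3 with all arrays, was 1 with quantile normalization, 0 with the unnamed probe sets included, 5 with a trended and robust prior, 2059 with gene-by-gene array weights, 9 with the replicate block and 79 with DN-Clim replicate 3 alone, and it ranged from 0 to 483 when each array was left out, 483 being without DN-Clim replicate 3. Of the 10 genes, 0 passed with all arrays, 3 with array weights (Aplnr, Prox1 and Flt1), 1 with DN-Clim replicate 3 alone (Angpt1, in a fit that gives 1 array the spread of WT), and 0 to 2 when each array was left out. At an unadjusted p under 0.05, the 1 lower gene became 4 with array weights, 2 with the lens covariate, 2 with DN-Clim replicate 3 alone and 1 to 3 when each array was left out. The share of all probe sets that was lower at that p was 16.2%, 6.19% and 8.12% under the 3 named alternatives and up to 13% without DN-Clim replicate 3. The 0 higher genes became 2, 1, 2 and 0 to 2 under the same alternatives, where the shares of all were 9.51%, 7.23%, 11.4% and up to 7.61%. The 1 gene without overlap became 2 with quantile normalization, 2 with median centring, 7 with DN-Clim replicate 3 alone and 1 to 5 when each array was left out, the 5 without DN-Clim replicate 3. Of all probe sets, 10.1% had no overlap with all arrays, 11.7% with quantile normalization, 9.81% with median centring, 68% with DN-Clim replicate 3 alone and 41.6% without it, so that the 7 and the 5 are near the share of all. The median difference of the 10 genes, -0.33, ranged from -0.43 to -0.11 when each array was left out. Of all the list genes, 1 passed with all arrays (0.0128% of all probe sets), 0 with the unnamed probe sets included (0%) and 2 with the trended prior (0.0214%). With array weights 68 passed (8.8% of all), with the replicate block 3 (0.0384%) and with the lens covariate 2 (0.0171%). When each array was left out, 0 to 39 passed (0% to 2.06% of all), the 39 without DN-Clim replicate 3.

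The array weights were chosen after seeing the data. They put the least weight, 0.199, on DN-Clim replicate 3 and so favour the other arrays. The labels give both groups the same replicate numbers and do not say whether these pair the samples. The deviations of same-numbered arrays from their group means correlated at 0.0172, -0.206 and -0.436. Deviations from a mean of 3 arrays are tied to one another, so these correlations cannot show whether arrays share a litter. The replicate block changed no call among the 10 genes (Aplnr -1.36, SE 0.291, limma adjusted p = 0.221). Averaging the probe sets of a gene was not run, since each of the 10 genes has 1. With 3 arrays a group an exact permutation test cannot go below a two-sided p of 0.1, and no exact test was used.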

Other observations

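Cells around vessels and other growth factors of vessels were measured beside the 10 genes. All 10 pericyte and mural genes had differences below 0, with a median of -0.50 and 0 past the threshold in limma. At an unadjusted p under 0.05, 4 were lower, where 4.49% of all probe sets were. Acta2, smooth muscle actin, read 10.37, 11.23 and 10.24 in WT, against 9.59, 8.70 and 9.19 in DN-Clim, without overlap (difference -1.45, SE 0.313, limma adjusted p = 0.498). Pdgfrb, the growth factor receptor of pericytes, read 8.69, 8.58 and 8.17 in WT, against 7.26, 6.82 and 8.14 in DN-Clim, again without overlap but with replicate 3 close to the lowest WT array (difference -1.07, limma adjusted p = 0.687).

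Of 11 other angiogenic ligands, 9 had a difference below 0 and 0 passed in limma. At an unadjusted p under 0.05, 2 were lower, where 4.49% of all probe sets were. The chemokine Cxcl12 was the most even of them, at 8.79, 8.82 and 8.79 in WT, against 8.15, 8.09 and 8.07 in DN-Clim (difference -0.70, SE 0.166, limma adjusted p = 0.612). It lay below WT by a similar amount on all 3 DN-Clim arrays, with or without the lens signal. Fgf2, a fibroblast growth factor that drives corneal vessel growth when implanted, read 8.19, 8.34 and 8.38 in WT, against 5.75, 6.598 and 7.76 in DN-Clim (difference -1.60, SE 0.419, limma adjusted p = 0.612). Without DN-Clim replicate 3 it fell by 2.13 (adjusted p = 0.00735).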
